A study of Caenorhabditis elegans with 10 samples.

Results

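The GATA factor genes of the intestine and epidermis are elt-1, elt-2, elt-3, elt-6, elt-7 and egl-18 of Caenorhabditis elegans. They were chosen by gene name. All 6 were found among the 46272 genes of the authors' deposited table, and all carry an adjusted p, as do 16802 genes in all. The cells of interest were ASH neurons, a pair of nociceptive neurons of the head, sorted on a YFP label (5 libraries). They were set against sorted cells without YFP, called non-ASH here (5 libraries). Both groups are labelled wild type and untreated and came from worms on standard agar plates. The labels give neither the age of the worms nor the promoter that drives YFP, and the cell types within the non-ASH fraction are not specified. The labels do not say whether the libraries derive from separate cultures or sorts, so the p-values measure only the spread between these libraries, which may be technical. The table gives 1 FPKM value per group and gene (fragments scaled by transcript length and library size), so no value below has a standard deviation, and whether neighbouring levels differ beyond the spread between libraries cannot be read from it.

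GATA factors are zinc finger proteins that bind DNA at the letters GATA. In the worm they act in cascades. In the endoderm, MED and END factors of the early embryo give way to ELT-2 and ELT-7, which keep intestinal genes active through life. In the ectoderm, ELT-1 sets epidermal fate and acts upstream of ELT-3 in the main epidermis and of EGL-18 and ELT-6 in the seam cells, the lateral epidermal stem cells. None of the 6 is a textbook factor of the ASH neuron.

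The 2 intestinal factors had the largest fold changes of the 6 genes, and that of elt-2 passed the authors' count-based test. The epidermal factor elt-3 was the member with the largest negative fold change, which did not pass. The other 3 had fold changes closer to 0. By DESeq2, the authors' test on counts, 1 of the 6 was higher in ASH and 0 were lower at an adjusted p under 0.05, where 5.32% of all tested genes were higher and 4.44% lower. By Cuffdiff, the authors' other tool, 2 were higher (elt-2 and elt-7) and 0 lower, against 3.58% and 3.53% of the same genes. At an unadjusted DESeq2 p under 0.05, 2 of the 6 had a positive fold change (elt-2 and elt-7) and 1 a negative one (elt-3), beside 11.4% and 12.3% of all tested genes. For so few genes these shares say little about the family, and the members are described singly below.

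The intestinal factor gene elt-2 encodes the principal GATA factor of the differentiated gut. It stood at 8.10 FPKM in ASH cells and 1.88 FPKM in non-ASH cells in the authors' deposited table, a ratio of 4.32. The authors' deposited table gives it a DESeq2 log2 fold change of 1.67 (adjusted p = 0.00823, Benjamini-Hochberg over all tested genes). The standard error implied by its unadjusted DESeq2 p of 0.000364, if from the default Wald test, is 0.47. This gives a 95% interval of 0.75 to 2.59. Cuffdiff gave a log2 fold change of 1.66 and q = 0.0103 in the authors' deposited table. Both tools thus placed elt-2 higher in ASH, and it was the only one of the 6 members that both called. In bulk RNA of a sorted fraction such as this, fewer cells of a type and less RNA per cell cannot be told apart.

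Its partly redundant partner elt-7 showed a larger and less certain difference. The authors' deposited table listed elt-7 at 12.8 FPKM in ASH cells and 1.56 FPKM in non-ASH, a ratio of 8.20. The DESeq2 log2 fold change of 2.14 did not pass, its unadjusted p of 0.00906 giving an adjusted p of 0.0737, as the authors' deposited table has it. Its implied standard error of 0.82 was the largest among the 6 members, and the 95% interval ran from 0.53 to 3.75. Cuffdiff called elt-7 higher, at a log2 fold change of 2.43 with q = 0.00817 in the authors' deposited table. The order of the intestinal pair also differed between the fractions, with elt-7 at 1.58 times the FPKM of elt-2 in ASH and at 0.832 times in non-ASH, a difference that was not tested.

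The epidermal factor elt-3, which acts in the main epidermis, was the most abundant member in non-ASH. It stood at 9.83 FPKM in ASH cells and 18.8 FPKM in non-ASH cells in the authors' deposited table, a ratio of 0.523. The DESeq2 log2 fold change was -0.91, with an unadjusted p of 0.0242 that did not pass adjustment (adjusted p = 0.137 per the authors' deposited table). Its implied 95% interval ran from -1.71 to -0.12. Cuffdiff did not call it either, with -0.87 and q = 0.263 in the authors' deposited table.

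Upstream of elt-3 in the embryo, elt-1 is the gene that commits cells to epidermis. The authors' deposited table gave elt-1 2.68 FPKM in ASH cells and 2.05 FPKM in non-ASH. Its DESeq2 log2 fold change was 0.32 (adjusted p = 0.638 per the authors' deposited table), with an implied 95% interval of -0.45 to 1.1. Neither tool called elt-1, and the interval does not exclude a change of about 2-fold upward. Within the epidermal pair, elt-3 was at 3.67 times the FPKM of elt-1 in ASH and at 9.19 times in non-ASH.

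The seam cell factors egl-18 and elt-6 are neighbours on chromosome IV, on the same strand with 0 protein-coding genes between them in Ensembl's annotation (WBcel235). They act together in seam cells and in the vulva. The authors' deposited table listed egl-18 at 13.6 FPKM in ASH cells and 9.34 FPKM in non-ASH. Its DESeq2 log2 fold change of 0.55 did not pass (adjusted p = 0.272 per the authors' deposited table), and the implied 95% interval was -0.06 to 1.17. For elt-6 the authors' deposited table had 2.33 FPKM in ASH cells and 2.19 FPKM in non-ASH. The log2 fold change of elt-6 was within rounding of 0.00 by DESeq2 (adjusted p = 0.9996) and 0.06 by Cuffdiff (q = 0.963) in the authors' deposited table, with an implied 95% interval of -0.98 to 0.98. The first gene of the pair was the more abundant in both fractions, egl-18 being at 5.85 times the FPKM of elt-6 in ASH and at 4.26 times in non-ASH.

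**Figure D1:**
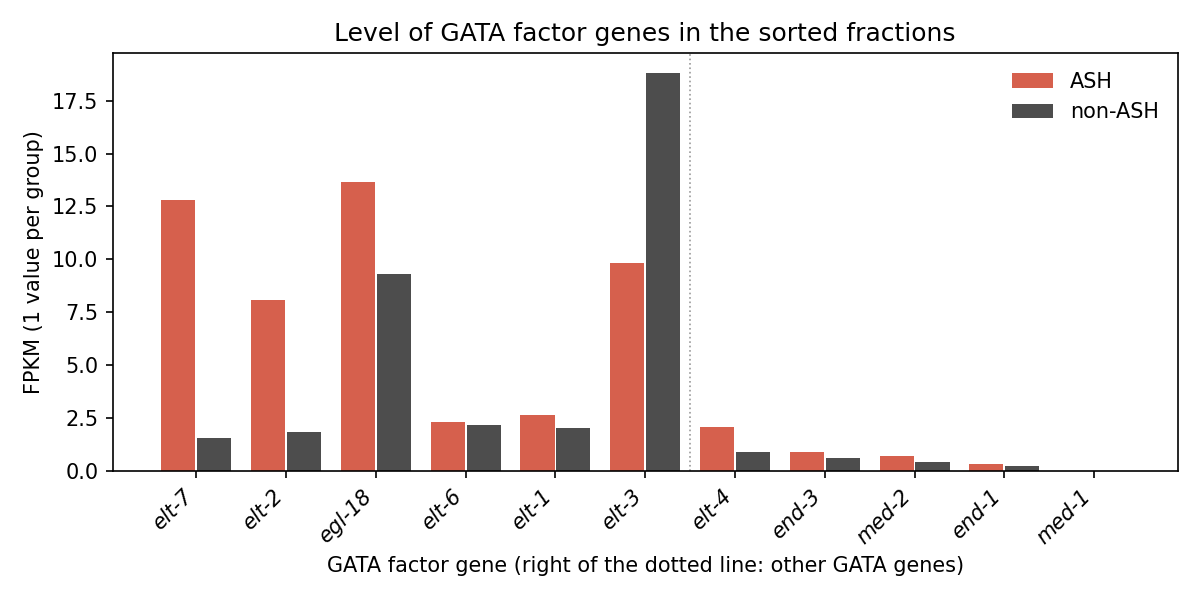
FPKM of the GATA factor genes (bars, 1 value per group, added 1 removed) in ASH and non-ASH cells; bars carry no error because the table holds 1 value per group. In ASH egl-18 and elt-7 stand highest at 13.6 and 12.8 FPKM, and in non-ASH elt-3 stands highest at 18.8 FPKM.

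Set in order of FPKM, the members ran egl-18, elt-7, elt-3, elt-2, elt-1 and elt-6 in ASH. In non-ASH the order was elt-3, egl-18, elt-6, elt-1, elt-2 and elt-7. The last 4 genes of the non-ASH order lay between 1.56 and 2.19 FPKM, so their order there rests on small differences. Summed FPKM of the 6 genes was 49.4 in ASH and 35.8 in non-ASH. Of that sum, elt-2 and elt-7 together made up 42.3% in ASH and 9.60% in non-ASH. The pair elt-1 and elt-3 made up 25.3% in ASH and 58.2% in non-ASH, most of it elt-3. The seam pair made up 32.3% in ASH and 32.2% in non-ASH. These shares describe 1 value per group and were not tested.

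**Figure D2:**
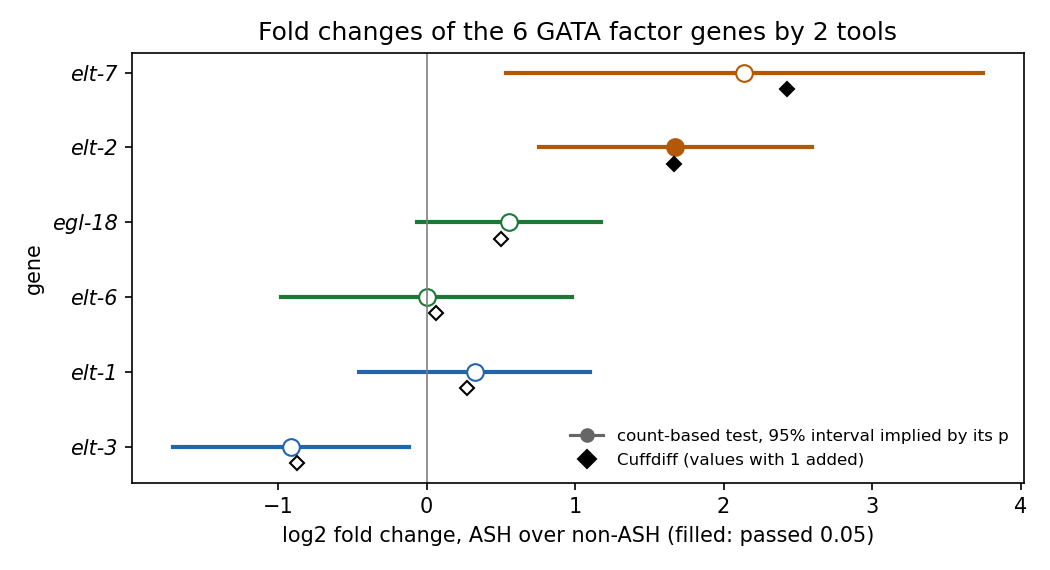
Log2 fold change of ASH over non-ASH for the 6 genes, by DESeq2 (circles, with the 95% interval implied by its p under a Wald test) and by Cuffdiff (diamonds); filled symbols passed 0.05. The interval of elt-2 runs from 0.75 to 2.59 and that of elt-7 from 0.53 to 3.75, while that of elt-3 lies below 0. The intervals follow the unadjusted p, and by DESeq2 neither elt-7 nor elt-3 passed at an adjusted p under 0.05.

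Against all tested genes, the members were of middling level. In ASH they ranked from the 37.5 percentile of FPKM (elt-6) to the 61.2 percentile (egl-18), and elt-7 lay at the 60.2 percentile. In non-ASH they ranked from the 30.1 percentile (elt-7) to the 64.1 percentile (elt-3), with elt-2 at the 32.6 percentile. The median DESeq2 log2 fold change of the 6 was 0.44, beside -0.09 for all 16802 tested genes. Among other families of transcription factors, 18 of 209 tested nuclear hormone receptor genes named nhr were higher and 2 lower by DESeq2 in the authors' deposited table (8.61% and 0.957%, beside 5.32% and 4.44% of all tested genes), with a median log2 fold change of 0.47. Of 53 tested homeobox genes named ceh, 1 was higher and 3 were lower (1.89% and 5.66%), with a median of 0.07. No difference between these families was tested.

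**Figure D3:**
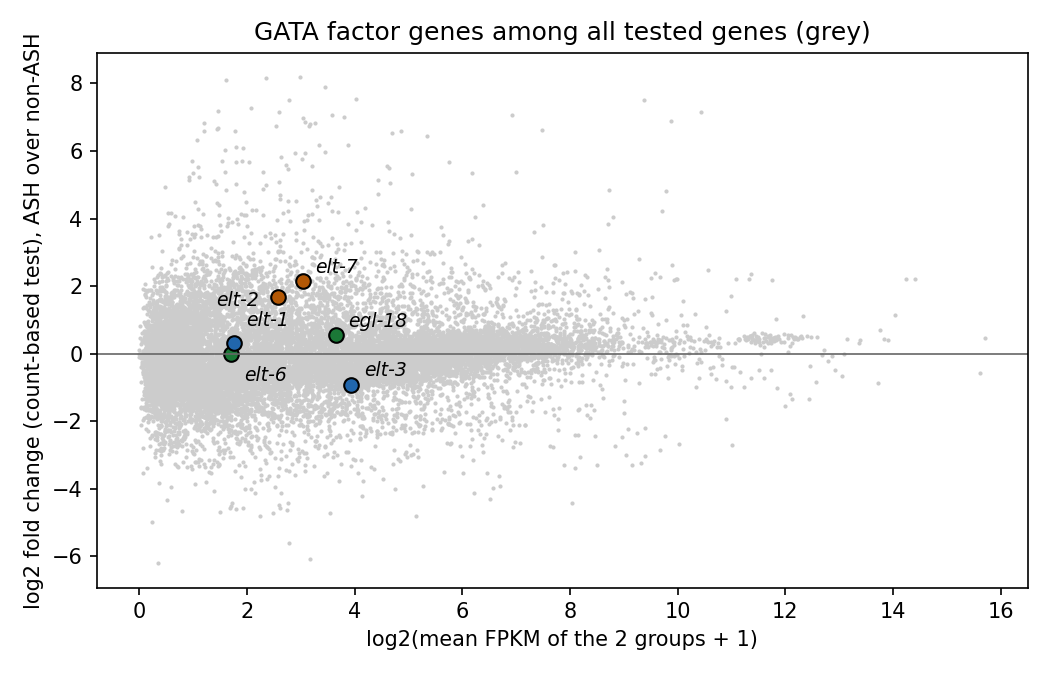
DESeq2 log2 fold change of ASH over non-ASH against the log2 of the mean FPKM of both groups plus 1, for all 16802 tested genes (grey) and the 6 GATA factor genes (coloured). The intestinal genes elt-7 (2.14) and elt-2 (1.67) lie above the epidermal and seam genes, and elt-3 (-0.91) lies lowest of the 6.

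The 5 other GATA genes of the worm were at or below 2.07 FPKM in both fractions, and 0 of the 4 with an adjusted p passed in either direction by DESeq2, 0 by Cuffdiff and 0 at an unadjusted p under 0.05. The small intestinal gene elt-4, which lies beside elt-2 on chromosome X with 1 protein-coding gene between them, stood at 2.07 FPKM in ASH cells and 0.895 FPKM in non-ASH cells in the authors' deposited table (log2 fold change 0.48, adjusted p = 0.784). Its longest coding length is 216 bases, against 1299 bases for elt-2, in Ensembl's annotation (WBcel235). The endoderm-specifying genes of the embryo had less. The authors' deposited table listed end-3 at 0.921 FPKM in ASH cells and 0.623 FPKM in non-ASH. For end-1 the authors' deposited table gave 0.331 FPKM in ASH cells and 0.232 FPKM in non-ASH. The gene med-2 stood at 0.724 FPKM in ASH cells and 0.417 FPKM in non-ASH cells in the authors' deposited table, while its near-identical copy med-1 was listed at 0 in both and had no adjusted p. Reads shared by the copies may have been split or dropped in the authors' counting, whose rule the sources used here do not give, and both are uncertain.

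Genes of the differentiated intestine, the tissue of ELT-2 and ELT-7, were mostly listed with positive fold changes. Of 33 tested genes of a list of intestinal genes, 11 were higher in ASH (33.3%), 1 was lower and 21 did not pass, beside the 5.32% and 4.44% of all tested genes. By Cuffdiff, 12 of the 33 were higher and 1 was lower, against 3.58% and 3.53% of all tested genes. The DESeq2 fold change was positive for 29 of the 33, and the list median was 1.29 on the log2 scale. Among the higher genes was fat-5, a fatty acid desaturase gene, at 183 FPKM in ASH cells and 28 FPKM in non-ASH cells in the authors' deposited table (log2 fold change 2.64, adjusted p = 4.35e-06). The saposin-like gene spp-1 stood at 696 FPKM in ASH cells and 121 FPKM in non-ASH cells in the authors' deposited table (2.52, adjusted p = 0.00105), a difference that Cuffdiff did not call (q = 0.512). Another desaturase gene, fat-6, had 1.91 (adjusted p = 0.000314), per the authors' deposited table. Cuffdiff called both fat-5 and fat-6 higher (q = 0.00101 for each). The most abundant were the aspartyl protease genes asp-1 and asp-3 and the yolk protein gene vit-2. In the authors' deposited table asp-3 had 1693 FPKM in ASH cells and 320 FPKM in non-ASH (2.23, adjusted p = 0.0165), and asp-1 had a log2 fold change of 2.22 (adjusted p = 0.00857), which Cuffdiff did not call (q = 0.111). Cuffdiff called asp-3 higher (q = 0.00186). The difference of vit-2 did not pass, with 1.58 and an adjusted p of 0.136 per the authors' deposited table.

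Which gene of the list was lower in ASH differed between the tools. The 1 gene lower by DESeq2 was erm-1, which links actin to the apical membrane and is also used by other epithelia, at 70.3 FPKM in ASH cells and 113 FPKM in non-ASH cells in the authors' deposited table (-0.61, adjusted p = 0.042), and Cuffdiff did not call it (q = 0.292). The 1 gene lower by Cuffdiff was the microvillus actin gene act-5, listed at 27.6 FPKM in ASH cells and 66.6 FPKM in non-ASH cells in the authors' deposited table (q = 0.0213), whose DESeq2 fold change of -1.22 did not pass (adjusted p = 0.186). The intermediate filament genes ifb-2 and ifc-2 of the gut cell's terminal web had positive fold changes that did not pass, ifb-2 at 29.01 FPKM in ASH cells and 17.2 FPKM in non-ASH cells (0.61, adjusted p = 0.455) and ifc-2 at 21.2 FPKM in ASH cells and 13.3 FPKM in non-ASH cells (0.45, adjusted p = 0.542), per the authors' deposited table. The gut esterase gene ges-1, a classic ELT-2 target, stood at 14.7 FPKM in ASH cells and 8.35 FPKM in non-ASH cells in the authors' deposited table (0.85, adjusted p = 0.216). The proton pump gene vha-6 was higher, at 37.0 FPKM in ASH cells and 12.4 FPKM in non-ASH cells in the authors' deposited table (1.53, adjusted p = 0.0317). The peptide transporter gene pept-1 was at 0.573 FPKM in ASH cells and 0.357 FPKM in non-ASH cells in the authors' deposited table (0.29, adjusted p = 0.836). The genes act-5, ges-1, ifb-2, vha-6 and pept-1 are the 5 defining markers of intestine used here, of which 1 was higher and 0 lower by DESeq2 with 1 lower at an unadjusted p under 0.05 and 1 by Cuffdiff, and 0 were at 0 FPKM in either fraction. Summed over the 34 list genes in the table, FPKM was 12943 in ASH and 3421 in non-ASH. Over the 5 defining markers the sum was 109 in ASH and 105 in non-ASH. Over the list, summed FPKM was higher in ASH, as for elt-2 and elt-7. Of it, asp-1 alone held 3660 FPKM in ASH cells and 692 FPKM in non-ASH cells in the authors' deposited table. Over the 5 defining markers the sums were close, with act-5 going the other way. The list was chosen with earlier results of these data known, so it gives no separate support for elt-2 or elt-7. The part of intestinal transcripts in the result for elt-2 was not tested.

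Epidermal genes, the setting of ELT-1 and ELT-3, split in both directions. By DESeq2, 3 of 29 tested genes were higher (10.3%), 6 were lower (20.7%) and 20 did not pass. The shares of all tested genes were 5.32% higher and 4.44% lower, and the list median was -0.28 on the log2 scale. The lower genes were led by the cuticle collagen genes dpy-13 and col-12. In the authors' deposited table dpy-13 stood at 0.137 FPKM in ASH cells and 10.02 FPKM in non-ASH (-4.56, adjusted p = 4.56e-05), and col-12 had -4.12 (adjusted p = 4.6e-05). The spectraplakin gene vab-10, which anchors the epidermis to muscle and cuticle, had -1.37 (adjusted p = 0.0165), per the authors' deposited table. The higher genes were the cuticle collagen genes dpy-17, sqt-3 and dpy-7. The largest of these differences was that of dpy-17, at 97.9 FPKM in ASH cells and 7.94 FPKM in non-ASH cells in the authors' deposited table (3.35, adjusted p = 7.31e-10). For sqt-3 the authors' deposited table gave 2.28 (adjusted p = 0.0114), and for dpy-7 2.23 (adjusted p = 0.046). Of the 3 collagen genes of the list with the highest FPKM in non-ASH, col-93 was lower, at 91.4 FPKM in ASH cells and 343 FPKM in non-ASH cells in the authors' deposited table (-2.25, adjusted p = 0.0368). The others, col-140 and col-19, did not pass, col-19 standing at 792 FPKM in ASH cells and 711 FPKM in non-ASH cells in the authors' deposited table (-0.18, adjusted p = 0.825). The epidermal zinc finger gene lin-26, a partner of the GATA factors in epidermal fate, was at 45.8 FPKM in ASH cells and 38.4 FPKM in non-ASH cells in the authors' deposited table (0.31, adjusted p = 0.532). Summed over the 32 genes, FPKM was 3065 in ASH and 3053 in non-ASH, and 0 of the genes were at 0 in either fraction. By Cuffdiff, 4 of the tested genes were higher and 5 lower, against 3.58% and 3.53% of all tested genes. Of the list genes without an adjusted p, Cuffdiff called dpy-10 and dpy-3 higher but not sma-1. Their q in the authors' deposited table was 0.0297, 0.0356 and 0.902.

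Seam cell genes, the setting of EGL-18 and ELT-6, gave 1 higher and 3 lower among 18 tested (5.56% and 16.7%, beside 5.32% and 4.44% of all tested genes), with 14 not passing. The list median was -0.04 on the log2 scale, and -0.90 over the 8 genes with at least 5 FPKM in either group. The lower ones were the hedgehog-related genes grd-13 and grd-10 and the heterochronic zinc finger gene lin-29, which drives the larval-to-adult switch of seam cells. In the authors' deposited table grd-10 stood at 1.59 FPKM in ASH cells and 28.4 FPKM in non-ASH (-3.14, adjusted p = 0.00178). The fold change of grd-13 was -3.47 (adjusted p = 0.00143) and that of lin-29 was -1.74 (adjusted p = 0.00276), per the authors' deposited table. Of these 3 Cuffdiff called grd-10 (q = 0.00648) but neither grd-13 (q = 0.451) nor lin-29 (q = 0.339), again in the authors' deposited table. The higher one was hbl-1, an earlier-acting heterochronic gene, at 2.53 FPKM in ASH cells and 0.109 FPKM in non-ASH cells in the authors' deposited table (1.81, adjusted p = 0.00688), which Cuffdiff did not call (q = 0.0609). The seam regulator ceh-16, which acts with egl-18 and elt-6, was at 0.855 FPKM in ASH cells and 0.693 FPKM in non-ASH cells in the authors' deposited table (0.37, adjusted p = 0.803). The highest level of the list in non-ASH was that of the hedgehog-related gene grd-3, at 33.6 FPKM in ASH cells and 137 FPKM in non-ASH cells in the authors' deposited table, which DESeq2 did not call (-1.97, adjusted p = 0.0578) and Cuffdiff did (q = 0.00588). The highest in ASH was that of lin-28, a heterochronic RNA-binding protein gene, at 54.3 FPKM in ASH cells and 51.5 FPKM in non-ASH cells in the authors' deposited table (0.19, adjusted p = 0.695). Summed FPKM of the 21 genes was 125 in ASH and 261 in non-ASH. Of these genes, 3 were at 0 in ASH and 2 in non-ASH.

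**Figure D4:**
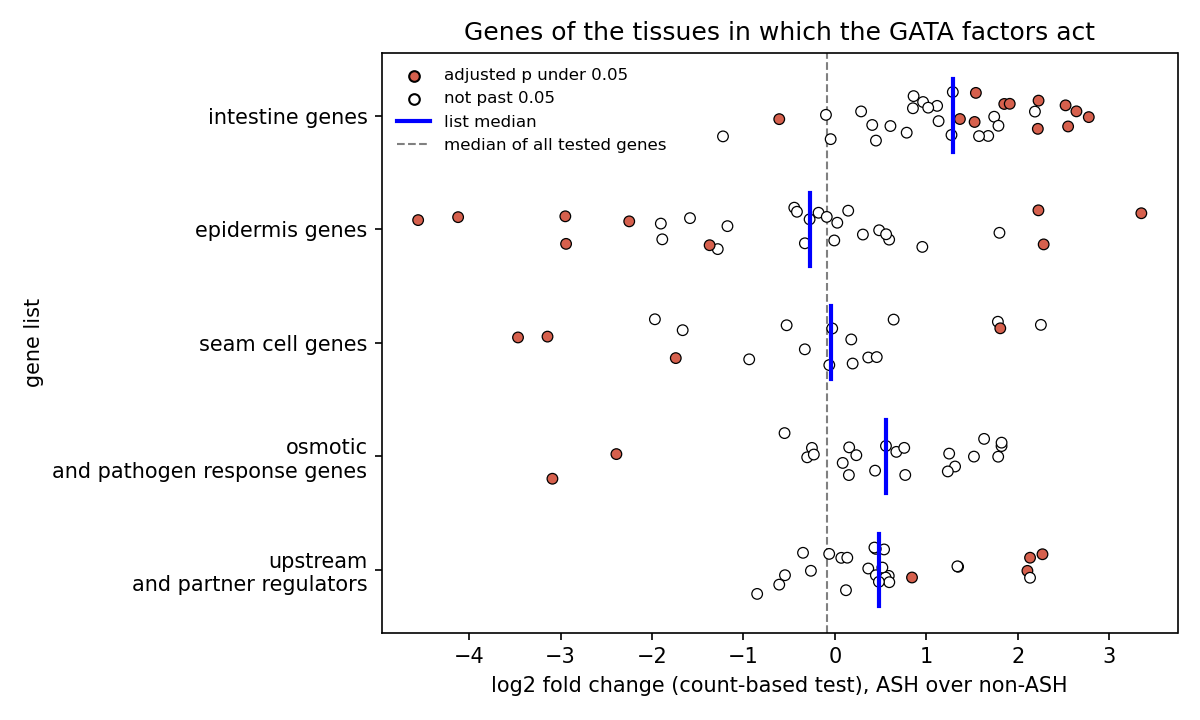
DESeq2 log2 fold changes of ASH over non-ASH for the tested genes of 5 lists (points; red, adjusted p under 0.05), with each list's median (blue) and the median of all tested genes (dashed, -0.09). The intestinal list has its median at 1.29, while the epidermal list spreads to both sides with called genes at both ends.

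ELT-2 and ELT-3 are known to act in the response of gut and epidermis to osmotic stress and infection, so genes of that response were read as well. Of 23 tested genes, 0 were higher, 2 were lower and 21 did not pass by DESeq2, with 17 positive fold changes and a median of 0.56. The 2 lower genes are 8.70% of the list, beside 4.44% of all tested genes lower and 5.32% higher. The lower ones were hmit-1.2, an osmotically induced inositol transporter gene, at -3.09 (adjusted p = 0.000532), and the glutathione transferase gene gst-4, at -2.39 (adjusted p = 0.00974), both in the authors' deposited table. At an unadjusted p under 0.05, 3 other members had positive fold changes, nlp-29, cnc-4 and hmit-1.1. Cuffdiff called these 3 higher, with nlp-31 and cnc-2, and called the same 2 genes lower, against 3.58% of all tested genes higher and 3.53% lower by that tool. Named after their values were seen, nlp-29 is an epidermal antimicrobial peptide gene at 215 FPKM in ASH cells and 88.4 FPKM in non-ASH cells in the authors' deposited table (1.25, adjusted p = 0.122), and hmit-1.1 is a further inositol transporter gene at 16.1 FPKM in ASH cells and 3.26 FPKM in non-ASH cells in the authors' deposited table (1.82, adjusted p = 0.204). The glycerol synthesis gene gpdh-1, the standard reporter of this response, was at 1.36 FPKM in ASH cells and 0.483 FPKM in non-ASH cells in the authors' deposited table (0.56, adjusted p = 0.664). The most abundant of the list was osm-11, at 481 FPKM in ASH cells and 575 FPKM in non-ASH cells in the authors' deposited table (-0.30, adjusted p = 0.694). The antimicrobial peptide gene nlp-28 and the lysozyme gene lys-7 came next in ASH, with 0.23 (adjusted p = 0.769) and 0.76 (adjusted p = 0.351), per the authors' deposited table.

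Regulators that act upstream of the GATA factors or beside them had 4 higher and 0 lower among 27 tested (14.8% higher, beside 5.32% of all tested genes higher and 4.44% lower), with 23 not passing and a median of 0.48. This list repeats genes given above, namely elt-4, end-1, end-3, med-1, med-2 and ceh-16, and DESeq2 called none of them. The list median is the value of elt-4. At an unadjusted p under 0.05, 8 of the 27 had a positive fold change and 0 a negative one. The shares of all tested genes were 11.4% and 12.3%. By Cuffdiff the lower count was also 0, beside 3.53% of all tested genes. The zinc finger gene pqm-1, an intestinal stress and metabolism regulator whose binding site resembles a GATA site, was at 89.2 FPKM in ASH cells and 16.2 FPKM in non-ASH cells in the authors' deposited table (2.27, adjusted p = 0.0236). It was the 1 gene of this list that Cuffdiff also called (q = 0.00101 in the authors' deposited table). The Hox gene mab-5 had 2.11 (adjusted p = 0.00821) and lit-1, a kinase gene of the Wnt pathway that divides endoderm from mesoderm, had 0.84 (adjusted p = 0.0167), per the authors' deposited table. The fourth was the posterior Hox gene nob-1, at 2.13 (adjusted p = 0.0358), per the authors' deposited table. Of the maternal and Wnt regulators of endoderm, skn-1 stood at 83.9 FPKM in ASH cells and 61.4 FPKM in non-ASH (0.60, adjusted p = 0.118) and pop-1 at 22.3 FPKM in ASH cells and 22.01 FPKM in non-ASH (0.14, adjusted p = 0.791), per the authors' deposited table. The insulin-pathway factor gene daf-16 had 86.7 FPKM in ASH cells and 88.5 FPKM in non-ASH cells in the authors' deposited table (0.07, adjusted p = 0.888).

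As a check of the fractions, all 6 ASH markers were higher in ASH by DESeq2, with a median log2 fold change of 3.53. Cuffdiff called 5 of the 6 higher. The 6 pan-neuronal markers had 1 higher and 0 lower (0 lower also by Cuffdiff and at an unadjusted p under 0.05), with summed FPKM of 479 in ASH and 329 in non-ASH. Of the pharyngeal, muscle, germline, glial, coelomocyte, epidermal and intestinal markers, 0 were at 0 FPKM in either fraction, but some were near 0. In the authors' deposited table the epidermal markers dpy-7 and rol-6 stood at 0.0252 FPKM in non-ASH and 0.102 FPKM in ASH, respectively. Presence in both fractions can therefore not be read for every marker. By DESeq2, 2 of 5 pharyngeal, 2 of 2 glial and 3 of 3 coelomocyte markers were lower, beside 4.44% of all tested genes. Higher were 1 of 4 body wall muscle, 1 of 5 epidermal and 1 of 5 intestinal markers, beside 5.32%. By Cuffdiff, 3 pharyngeal, 1 glial, 3 coelomocyte and 1 intestinal marker were lower, beside 3.53%. The higher counts of muscle, epidermis and intestine were the same by Cuffdiff, beside 3.58%. Of 4 germline markers, 0 passed by DESeq2 or by Cuffdiff (1 at an unadjusted p under 0.05). The part of these tissues in the values of the GATA factor genes was not tested.

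With only 2 group values per gene, likeness of pattern was measured as the distance between genes in log2(FPKM + 1) of both fractions, over all named protein-coding genes with an adjusted p. Nearest to elt-2 were fbxl-5, at 8.13 FPKM in ASH cells and 1.87 FPKM in non-ASH cells in the authors' deposited table, and npr-28, at a distance of 0.00903. Nearest to elt-7 were xbx-4, at 12.02 FPKM in ASH cells and 1.51 FPKM in non-ASH cells in the authors' deposited table, and the nuclear hormone receptor gene nhr-55. DESeq2 called nhr-55 higher at 2.31 with an adjusted p of 7.83e-05 per the authors' deposited table, at levels close to those at which elt-7 did not pass. Nearest to elt-3 were oxy-4 and the trehalose synthesis gene tps-1, and nearest to egl-18 were mig-18 and ipla-2. For elt-1 they were nhr-284 and npr-16, and for elt-6 fbxa-79 and sem-2. Across all 12 neighbours the distance was at most 0.135, which is likeness in 2 numbers only.

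Apart from Cuffdiff's q and the unadjusted p, 4 other rules for a call each left elt-2 as the single member called. At an adjusted p under 0.01, 2.67% of tested genes were higher and 2.06% lower. With a change of at least 2-fold as well as an adjusted p under 0.05, 4.90% were higher and 4.08% lower. Called by both tools in the same direction were 4.6% of genes. Among the 9921 genes with at least 5 FPKM in either group, 12.9% were called by DESeq2 in either direction.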

How the data were processed

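Strand-specific libraries were made from poly(A)-selected RNA, per the labels' protocols. They were grouped by sample title into 5 ASH and 5 non-ASH libraries. The submitters' processing notes name TopHat2 (2.0.13) with Bowtie2 (2.2.1), HTSeq with DESeq2, and Cufflinks with Cuffdiff, beside FastQC. The genome build and annotation are not given in the sources used here, and coordinates are left out.

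The authors' deposited table holds 1 Cuffdiff FPKM per group, to which the authors added 1, and that 1 was subtracted here. The authors deposited a log2 fold change from Cuffdiff, which includes the added 1, and a second from DESeq2. Beside each the authors deposited its p-value and q-value. The authors' DESeq2 adjusted p equals a Benjamini-Hochberg adjustment over 16802 genes, called tested here. The other genes have none. Library depth is unknown. With 0 columns of single libraries, no new test was run, and there is no precision beyond the authors' p. Standard errors were derived from the authors' DESeq2 fold change and unadjusted p, assuming a Wald test, which the sources do not state.

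Genes were matched by WormBase identifier to current symbols (93.5% of rows). The members and lists were chosen with earlier results of these data known, so lists are described by counts and medians. Named genes are the GATA genes and, per list, up to 3 called genes with the smallest adjusted p in each direction and the 3 most abundant, plus the 2 nearest genes per member. Genes outside this rule (act-5, ges-1, vha-6, ifb-2, ifc-2, pept-1, dpy-3, dpy-10, sma-1, rol-6, lin-26, ceh-16, nlp-29, nlp-31, cnc-2, cnc-4, hmit-1.1, gpdh-1, nob-1, pop-1) were added after their values were seen. Alternatives were Cuffdiff's q, stricter thresholds, a floor of 5 FPKM and pseudocounts of 0.1 and 5. The counting of calls was tested on simulated data. Software was Python 3.11.15, pandas 2.3.3, scipy 1.17.1 and matplotlib 3.10.9.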

Additional observations from a re-analysis of the deposited data

How the results depend on the processing

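The call of elt-2 held under each rule tried. The number of members called became 2 with Cuffdiff's q, which added elt-7. The fold change of elt-6, within rounding of 0.00 by DESeq2, turned positive in the Cuffdiff value (0.061) and in the FPKM ratio with pseudocounts of 0.1 (0.0843) and 5 (0.0274). The other 5 members kept their sign under all of these. The log2 ratio of elt-2 was 0.93 with a pseudocount of 5 and 2.05 with 0.1. At an adjusted p under 0.01 the higher intestinal genes numbered 4 of 33 tested, in place of 11, and the lower ones 0. The epidermal counts were 1 higher and 2 lower of 29 tested. At that threshold 2.67% of all tested genes were higher and 2.06% lower. The lower intestinal count was also 0 with a change of at least 2-fold, beside 4.08% of all tested genes. With Cuffdiff's q, 0 of 18 seam cell genes and 5 of 23 osmotic and pathogen response genes were higher, beside 3.58% of all tested genes. With a floor of 5 FPKM the median log2 fold change of the seam list was -0.90 over 8 genes, against -0.04 over 18, and that of the intestinal list 1.53 over 27 genes. The causes were not tested. No paired analysis was possible because the table holds 1 value per group and no columns of single libraries, and for the same reason no library could be left out.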

Other observations

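Other tested genes shared the disagreement of the tools over elt-7, in a count made after the data were seen. In the authors' deposited table DESeq2 called 1640 of the 16802 tested genes and Cuffdiff 1194. Both called 773 in the same direction and 0 in opposite directions, while Cuffdiff alone called 421 and DESeq2 alone 867. Of the 806 genes with a DESeq2 adjusted p from 0.05 to 0.1, where elt-7 lies, Cuffdiff called 188 (23.3%) in either direction. Of all tested genes, Cuffdiff called 3.58% higher and 3.53% lower.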
